A study of Mus musculus with 19 samples.

Results

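The genes described here control the dissolving of blood clots and the start of clotting at the vessel wall. They were taken by symbol from a list of 9 (Plat, Plau, Plaur, Serpine2, Thbd, F3, Tfpi, Procr and Anxa2). The list was chosen with earlier results of these data known, so counts of members set beside shares of all genes below are descriptions. All 9 were found among the 39179 genes counted in each of 19 libraries. The libraries hold polyadenylated RNA of cerebral microvessels (capillaries and the finest arterioles and venules of the brain) from male mice of the strain C57BL/6 bought at 7 weeks of age. There are 5 groups: Room-air (4 libraries, exposed to room air), Nic-free (4, vapour of an electronic cigarette without nicotine), Nic (3, the same kind of vapour with nicotine), air (4, also labelled as room air exposure) and smoke (4, exposed to smoke whose source the labels do not name). The labels give no dose, duration, age at collection, batch or day, and do not say how the vessels were isolated or which air group belongs to which exposure. By the titles, Room-air was taken as the control of the vapour groups and air as the control of smoke.

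Plasmin, the enzyme that cuts fibrin, is released from plasminogen by the tissue-type activator (Plat) and the urokinase-type activator (Plau). Urokinase acts on cells that carry its receptor (Plaur), and annexin A2 (Anxa2) holds plasminogen and the tissue-type activator on the endothelial surface. Protease nexin-1 (Serpine2) is a serpin that blocks both activators and thrombin. Clotting starts when tissue factor (F3), which in brain is made mainly by astrocytes, binds factor VII. Endothelial cells hold this in check with tissue factor pathway inhibitor (Tfpi), with thrombomodulin (Thbd), which turns thrombin into an activator of protein C, and with the endothelial protein C receptor (Procr).

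Total counts per library, in M (1000000 counts), were 25.3 to 30.2 M in Room-air, 15.2 to 19.1 M in Nic-free, 21.8 to 28.4 M in Nic, 9.8 to 13.5 M in air and 7.9 to 12.6 M in smoke. Plaur had 9 to 39 counts per library in Nic-free, air and smoke, and Procr had 19 to 96 there. All 18 endothelial markers had counts and none was at 0 in any library. Their summed level ran from 2486 to 3653 CPM (counts per M of the library) in Room-air, 2082 to 3155 in Nic-free, 2727 to 5170 in Nic, 1364 to 2535 in air and 2512 to 3318 in smoke. Astrocyte markers (10 of 10 with counts, none at 0) summed to 3688 to 4541 CPM in Room-air, 5175 to 6101 in Nic-free, 4179 to 4210 in Nic, 4341 to 5409 in air and 4164 to 8126 in smoke. In Nic, library 2 stood apart from the other libraries of its group, with an endothelial sum of 2727 CPM against 5157 and 5170. In bulk RNA, fewer cells of a type and less RNA per cell cannot be told apart. Nothing in the labels says that the libraries of a group came from separate animals, so the p-values below measure only the spread between these libraries.

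Compared per length (RPKM, CPM per kilobase of exon), the members fell into an abundant and a scarce set. Over the 19 libraries the mean RPKM was 30.03 ± 5.11 (SD) for Serpine2, 25.7 ± 4.66 for F3, 19.3 ± 9.87 for Plat, 18.1 ± 8.94 for Thbd and 14.7 ± 4.52 for Anxa2. It was 3.28 ± 0.741 for Plau, 2.61 ± 0.686 for Tfpi, 2.16 ± 0.719 for Procr and 1.41 ± 1.06 for Plaur. Neighbours in this order overlapped over the libraries in every case but one. The lowest Anxa2 value (8.60 RPKM) lay above the highest Plau value (4.60 RPKM). The order differed by group: Plat stood highest in Nic (34.7 ± 7.30 RPKM, n = 3), ahead of Thbd (32.2 ± 12.4), whereas Serpine2 stood highest in smoke (33.7 ± 8.27, n = 4), where Plat was at 11.9 ± 1.40. Plaur varied most, by 15.2-fold in CPM between its lowest library (air 4) and its highest (Nic 3), and Serpine2 least, by 1.90-fold.

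**Figure D1:**
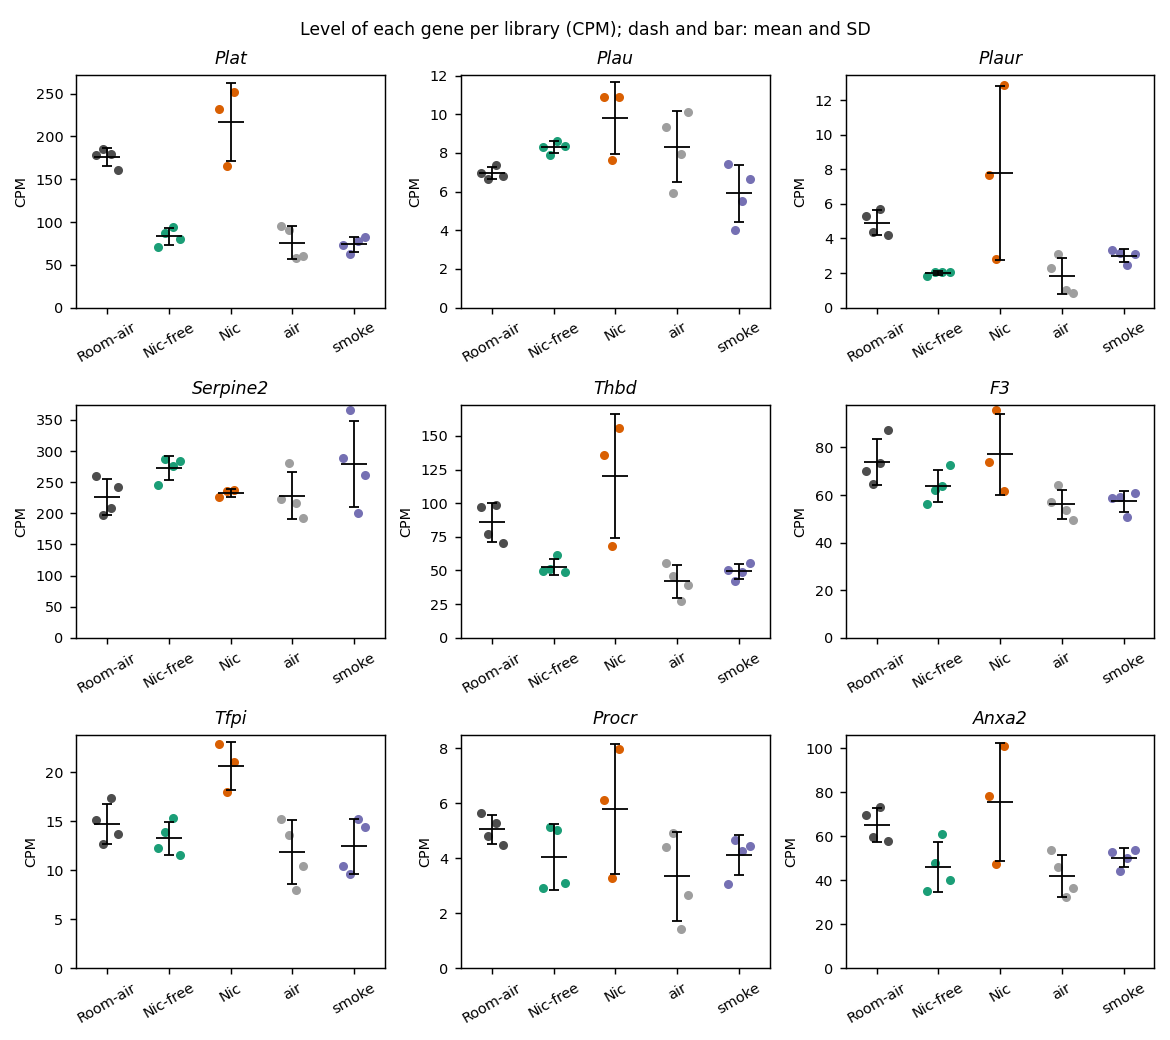
Level of each of the 9 genes in CPM (y axis, from 0) in every library of the 5 groups (x axis). Points are libraries in order of replicate number, and dash and bar are the group mean and SD. Plat lies at 161 to 252 CPM in the Room-air and Nic libraries and at 58.4 to 95.35 CPM in all others.

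Among the activators of plasminogen, Plat (ENSMUSG00000031538, chromosome 8, 22757727 to 22782844, plus strand, GRCm38) separated the groups most clearly. It stood at 178, 185, 180.1 and 161 CPM in Room-air 1 to 4 and at 70.8, 87.7, 94.2 and 79.9 CPM in Nic-free 1 to 4. In Nic 1 to 3 it stood at 233, 165 and 252 CPM. It was at 95.35, 90.15, 58.4 and 59.8 CPM in air 1 to 4 and at 73.4, 62.35, 78.3 and 82.6 CPM in smoke 1 to 4. Every Room-air and Nic library thus lay above every library of the other 3 groups, and the Room-air and Nic ranges overlapped each other. Oligodendrocyte markers split the libraries along the same line in reverse. They summed to 12800 to 15420 CPM in Room-air and 9245 to 15210 in Nic. The sums were 18800 to 20630 CPM in Nic-free, 22910 to 31960 in air and 16780 to 24470 in smoke. The part of these markers in the Plat values was not tested. For this split, and for Nic-free or smoke against Room-air, the share of all genes that separate in the same way is not given here. This holds for the levels of the other members below as well. Between Nic and Nic-free the ranges of 33.9% of genes tested did not overlap. Plau (ENSMUSG00000021822, chromosome 14, 20836660 to 20843385, plus strand), the other activator, was scarcer and followed another order. Its levels were 6.96, 6.67, 7.36 and 6.83 CPM in Room-air, 8.29, 7.88, 8.62 and 8.355 in Nic-free, and 10.9, 7.65 and 10.9 in Nic. They were 9.33, 5.94, 7.93 and 10.1 CPM in air and 7.45, 4.03, 5.49 and 6.66 in smoke. The Nic-free and Nic libraries all lay above the Room-air libraries, and the air and smoke ranges overlapped.

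On the receptor side, Plaur (ENSMUSG00000046223, chromosome 7, 24462484 to 24475968, plus strand), a lipid-anchored surface protein that is often low in resting tissue, was the least abundant member. It stood at 5.30, 4.39, 5.70 and 4.20 CPM in Room-air, at 1.84, 2.055, 2.04 and 2.04 in Nic-free and at 7.66, 2.83 and 12.9 in Nic. It was at 2.31, 3.07, 1.04 and 0.849 CPM in air and at 3.34, 3.15, 2.46 and 3.09 in smoke. Nic-free, air and smoke lay below Room-air in every library, and Nic spread from under to over the Room-air range. Anxa2 (ENSMUSG00000032231, chromosome 9, 69453620 to 69491795, plus strand) had 69.7, 59.4, 73.4 and 57.6 CPM in Room-air, 35.25 to 60.8 in Nic-free and 78.4, 47.3 and 101 in Nic. In air it had 53.65, 45.8, 32.1 and 36.2 CPM, and 44.1 to 53.9 in smoke. Air and smoke lay below Room-air without overlap, while Nic-free overlapped it. An antisense gene within Anxa2, Gm16144, had 0 counts in every library.

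The inhibitor Serpine2 (ENSMUSG00000026249, chromosome 1, 79794197 to 79861180, minus strand) was high in all groups. Its levels were 259, 197, 209 and 242 CPM in Room-air, 246, 287, 275 and 283 in Nic-free and 226, 236 and 237 in Nic. In air they were 223, 281, 217 and 192 CPM and in smoke 289, 366, 200.4 and 262. Nic lay below Nic-free without overlap, and each group overlapped Room-air. The smoke library with the highest Serpine2 (smoke 2) also had the highest astrocyte marker sum, 8126 CPM, and the lowest smoke library (smoke 3) the lowest sum of that group, 4164 CPM; the part of these markers in the Serpine2 values was not tested.

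Of the brakes on clotting, Thbd (ENSMUSG00000074743, chromosome 2, 148404466 to 148408188, minus strand) stood at 97.2, 76.8, 98.4 and 70.25 CPM in Room-air, at 49.3, 50.9, 61.55 and 48.7 in Nic-free and at 136, 67.9 and 156 in Nic. It stood at 55.5, 45.6, 27.0 and 39.3 CPM in air and at 50.1, 42.45, 48.7 and 55.8 in smoke. As with Plat, no library of Nic-free, air or smoke reached the lowest Room-air or Nic library. Tfpi (ENSMUSG00000027082, chromosome 2, 84432855 to 84476775, minus strand) was at 15.1, 12.7, 17.3 and 13.65 CPM in Room-air, 12.2, 13.9, 15.4 and 11.5 in Nic-free and 22.8, 18.0 and 21.0 in Nic. It ran from 7.93 to 15.3 CPM in air and from 9.57 to 15.2 in smoke. Its 3 Nic libraries were the 3 highest of all 19, and how many genes share this was not counted. Procr (ENSMUSG00000027611, chromosome 2, 155751117 to 155755471, plus strand) ran from 4.46 to 5.63 CPM in Room-air, 2.89 to 5.14 in Nic-free, 3.29 to 7.97 in Nic, 1.41 to 4.92 in air and 3.06 to 4.66 in smoke. All 5 of its ranges overlapped at least one other. F3 (ENSMUSG00000028128, chromosome 3, 121723537 to 121735048, plus strand), which starts clotting, ran from 64.5 to 87.4 CPM in Room-air, 56.4 to 72.6 in Nic-free, 61.7 to 95.6 in Nic, 49.3 to 64.0 in air and 50.6 to 60.7 in smoke. The air and smoke libraries lay below the Room-air libraries, and the vapour groups overlapped them.

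Over the 19 libraries the members fell into a set that varied together and 3 that did not join it. Pearson r of log2 CPM was 0.64 to 0.93 for the 15 pairs among Plat, Thbd, Plaur, Anxa2, Tfpi and Procr, highest for Plat with Thbd (0.93) and Thbd with Anxa2 (0.92). Serpine2 had r from −0.42 to 0.14 with the other members and Plau from −0.42 to 0.28. F3 ran from −0.125 with Plau to 0.56 with Plat, which was −0.21 after removal of group means. These values describe libraries that share depth, group and composition, and no test was made. Thbd had r of 0.92 with the endothelial marker sum and 0.95 with the pericyte sum. Anxa2 had r of 0.93 and Plaur 0.87 with the endothelial sum. Plat had 0.79 with it, 0.85 with pericyte and 0.84 with perivascular macrophage markers. With the oligodendrocyte sum r was −0.80 for Plat and −0.75 for Thbd, and 0.25 and 0.18 within groups. After removal of group means the endothelial r was 0.93 for Thbd, 0.90 for Plat, 0.91 for Anxa2 and 0.72 for Plaur. The smooth muscle r was then 0.89, 0.92, 0.92 and 0.79 for the same genes. Serpine2 tracked astrocyte markers instead (r 0.88, and 0.85 within groups), and F3 had r of 0.24 with the endothelial sum and −0.41 within groups. Procr was closest to smooth muscle markers (0.89), and Plau had r from −0.39 (astrocyte) to 0.35 (neutrophil and monocyte) with the 16 marker lists, and from −0.44 (astrocyte) to 0.56 (erythroid) within groups.

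**Figure D2:**
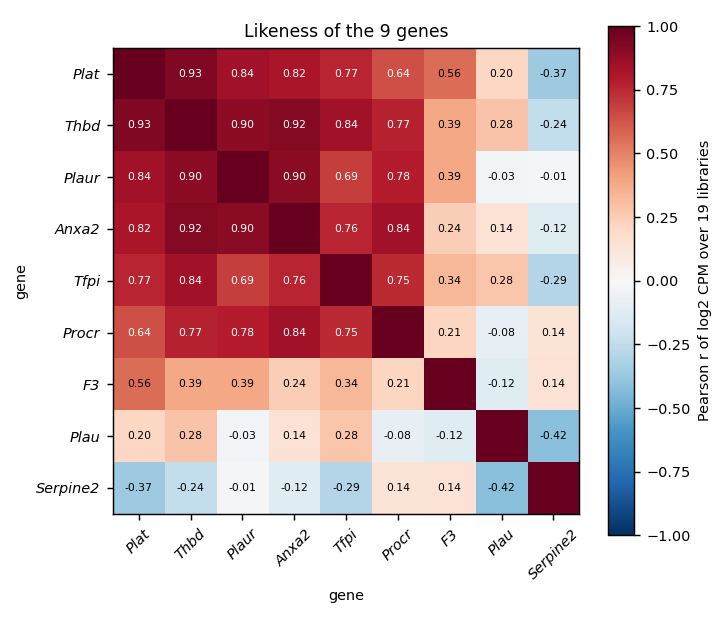
Pearson r of log2 CPM over 19 libraries for each pair of the 9 genes (rows and columns), as colour and number. The block of Plat, Thbd, Plaur, Anxa2, Tfpi and Procr has r of 0.64 to 0.93. Serpine2, Plau and F3 stand outside it, and F3 reaches 0.56 with Plat.

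RefSeq promoter sequences (GRCm38.p6) were found for 6 members: Plaur, Serpine2, F3, Tfpi, Procr and Anxa2. Those of the 4 matched genes that varied together are shown, since their levels moved together over the libraries. For Plat and Thbd, which belong to the same set, no promoter was found. F3 and Serpine2, which enter the motif counts below, stood outside that set. The windows are chr7:24462233-24462482 (plus strand) for Plaur, chr2:84476776-84477009 (minus strand) for Tfpi, chr2:155750967-155751116 (plus strand) for Procr and chr9:69453433-69453619 (plus strand) for Anxa2, read 5′ to 3′, without bases that lie inside the annotated gene. Capitals mark matches on either strand to the GC box GGGCGG, the KLF box CACCC, the AP-1 site TGANTCA, the CRE core TGACG, the E-box CACGTG or the TATA box TATAAA, and matches of different motifs can overlap.
Plaur: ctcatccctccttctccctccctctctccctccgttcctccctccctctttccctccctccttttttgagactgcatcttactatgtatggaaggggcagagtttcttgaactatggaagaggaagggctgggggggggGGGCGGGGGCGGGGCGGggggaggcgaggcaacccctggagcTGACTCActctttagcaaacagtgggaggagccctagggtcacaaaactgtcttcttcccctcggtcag
Tfpi: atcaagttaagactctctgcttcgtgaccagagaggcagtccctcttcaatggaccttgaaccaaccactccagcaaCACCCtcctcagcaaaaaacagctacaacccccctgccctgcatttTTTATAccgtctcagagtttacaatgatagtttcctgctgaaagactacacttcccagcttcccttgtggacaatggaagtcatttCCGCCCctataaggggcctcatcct
Procr: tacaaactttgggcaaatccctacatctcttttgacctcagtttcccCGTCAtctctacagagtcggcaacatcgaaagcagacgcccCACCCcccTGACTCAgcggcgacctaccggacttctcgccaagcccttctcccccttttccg
Anxa2: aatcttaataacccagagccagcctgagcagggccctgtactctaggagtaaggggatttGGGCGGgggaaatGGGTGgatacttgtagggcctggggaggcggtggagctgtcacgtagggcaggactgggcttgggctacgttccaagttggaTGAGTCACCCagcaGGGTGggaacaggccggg
In the 250 bases before the RefSeq start, the AP-1 letters were present in Plaur (at −69 to −63 from the start), Procr (−154 to −148), Anxa2 (−95 to −89) and F3 (−146 to −140 and −135 to −129), that is in 4 of 6 members and in 6.87% of 27025 promoters of the same length. GC boxes were present in 5 of 6 members and 32.9% of promoters, KLF boxes in 4 of 6 and 51.3%, TATA boxes in 2 of 6 and 13%, the CRE core in 1 of 6 and 17.9%, and the E-box in 0 of 6 and 6.05%. Tfpi held no AP-1 letters in this window. Matches were counted in all 250 bases, of which those inside the annotated gene are not printed. A match is a description of letters, not a site of binding.

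Exposure to vapour without nicotine was compared with room air. Plat was at 176 ± 10.6 CPM (SD, n = 4) in Room-air and fell to 83.2 ± 10.1 (n = 4) in Nic-free. Its log2 fold change was −1.03 with an SE of 0.12 (edgeR quasi-likelihood test, Benjamini-Hochberg adjusted p 0.000294), and Plaur fell to 1.99 ± 0.102 CPM from 4.90 ± 0.718 (−1.24 ± 0.36, adjusted p 0.0302). Thbd fell to 52.6 ± 6.03 CPM from 85.7 ± 14.3 (−0.65 ± 0.21, adjusted p 0.047), and Serpine2 rose to 273 ± 18.8 CPM from 227 ± 28.8 (0.32 ± 0.10, adjusted p 0.0316). So 3 of the 9 members fell and 1 rose, where 21.8% of the 17235 genes tested passed, 10.4% lower and 11.3% higher. Anxa2 (−0.45, adjusted p 0.159), Procr (−0.26, 0.496), F3 (−0.17, 0.4), Tfpi (−0.09, 0.62) and Plau (0.30, 0.0919) did not pass. The median log2 fold change of the members was −0.26, beside 0.0042 for all genes tested. The share of the endothelial sum, used here and in the comparisons below, is the member's CPM as a percentage of that sum, which contains no member. It was computed after the values had been seen and for the 9 members only. How many of all genes tested separate the groups on such a share was not counted. The endothelial marker sum was 2507 ± 520 CPM in Nic-free against 3221 ± 550 in Room-air (n = 4 each, ranges overlapping). Relative to that sum, Plat was at 2.98 to 3.82% in Nic-free and 4.91 to 6.47% in Room-air. Thbd was at 1.88 to 2.37% against 2.47 to 2.83%, and Plaur at 0.0646 to 0.0975% against 0.141 to 0.169%. Each of the 3 ranges lay below that of Room-air without overlap, and the part of endothelial content in the falls was not tested. For Serpine2, whose rise went with an astrocyte marker sum of 5620 ± 396 CPM against 4271 ± 396, the part of astrocyte markers was not tested. Without a filter on low counts Plat alone passed (adjusted p 1.69e-06), beside 3259 of all genes. Leaving out Room-air 2, Room-air 3, Nic-free 2, Nic-free 3 or Nic-free 4 also left Plat alone, and leaving out Room-air 1 or Nic-free 1 left 2 members. Over the fits that left out 1 library, 2186 to 3534 of all genes passed. With air as the control none of the 9 passed, where 699 of 16557 genes did. Plat then stood at 0.14 (adjusted p 0.652), Thbd at 0.34 and Plaur at 0.16.

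Vapour with nicotine was compared with the same Room-air libraries, which the preceding comparison also used. All 9 log2 fold changes were above 0 and none passed (edgeR, adjusted p under 0.05), in a comparison where 3.89% of 17235 genes passed. At an unadjusted p under 0.05 there were 2, Plau and Tfpi, beside 24.4% of all genes, and DESeq2 called both. Tfpi stood at 20.6 ± 2.44 CPM (SD, n = 3) against 14.7 ± 2.03 (n = 4), with a log2 fold change of 0.47 ± 0.13 and an adjusted p of 0.0561, and Plau at 9.80 ± 1.87 CPM against 6.95 ± 0.296 (0.47 ± 0.13, 0.0539). These were also the 2 members whose Nic libraries all lay above all Room-air libraries, as held for 8.19% of genes tested. Plaur (0.65 ± 0.34, adjusted p 0.263), Thbd (0.46 ± 0.22, 0.228) and Plat (0.28 ± 0.13, 0.21) had wider spread, and Anxa2 (0.20), Procr (0.18), F3 (0.04) and Serpine2 (0.02) were smaller. The median over the members was 0.28, and 0.03 over all genes tested. Library Nic 2 held the lowest Plat, Plau, Plaur, Thbd, Tfpi, Procr and Anxa2 values of its group. Over the fits that left out 1 library, 0 to 2956 of all genes passed. Without Nic 2, 3 members passed: Plaur at 1.05 (adjusted p 0.0229), Thbd at 0.74 (0.0216) and Plau at 0.62 (0.0246). Without Nic 3 Plaur was at 0.06, Thbd at 0.22 and Plat at 0.14, the fold changes of Procr (−0.14) and Anxa2 (−0.08) were below 0, and Tfpi passed (0.45, adjusted p 0.0497), as it did without Room-air 3 (0.55, 0.0493). With air as the control 6 members passed, all higher: Plat (1.44), Plaur (2.05), Thbd (1.45), Tfpi (0.73), Anxa2 (0.78) and F3 (0.37). In that contrast 4961 of 16557 genes passed.

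Nicotine against nicotine-free vapour compares 2 groups that by their labels differ in nicotine, and uses no air library. Here Plat, at 83.2 ± 10.1 CPM (SD, n = 4) in Nic-free, rose to 216.5 ± 45.6 (n = 3) in Nic, by 1.31 ± 0.13 on the log2 scale (edgeR adjusted p 0.000187), and Plaur to 7.79 ± 5.02 CPM from 1.99 ± 0.102 (1.89 ± 0.38, adjusted p 0.0039). Thbd rose to 120.0 ± 46.2 CPM from 52.6 ± 6.03 (1.12 ± 0.23, adjusted p 0.00463) and Tfpi to 20.6 ± 2.44 CPM from 13.2 ± 1.72 (0.56 ± 0.13, 0.00695), while Serpine2 fell to 233 ± 6.18 CPM from 273 ± 18.8 (−0.30 ± 0.11, 0.0497). That is 4 members higher and 1 lower of 9, where 24.8% of all genes tested passed, 12.4% in each direction. The same 5 members were those whose ranges did not overlap, as was the case for 33.9% of genes tested. Anxa2 (0.64, adjusted p 0.0609), Procr (0.44, 0.253), F3 (0.20, 0.319) and Plau (0.17, 0.371) did not pass, and the median over the members was 0.56 beside 0.02 over all genes. The endothelial marker sum was 4351 ± 1407 CPM in Nic and 2507 ± 520 in Nic-free, with overlapping ranges. As a share of that sum, Plat was 4.51 to 6.06% in Nic and 2.98 to 3.82% in Nic-free, Plaur 0.104 to 0.249% against 0.0646 to 0.0975%, and Thbd 2.49 to 3.02% against 1.88 to 2.37%, all without overlap, whereas Tfpi at 0.406 to 0.660% overlapped 0.487 to 0.588%. The astrocyte marker sum, 4179 to 4210 CPM in Nic and 5175 to 6101 in Nic-free, moved with the fall of Serpine2 without overlap, and its part in that fall was not tested. Neuron markers (7679 to 8067 CPM in Nic, 9913 to 11410 in Nic-free) also separated the groups. So did oligodendrocyte markers (9245 to 15210 and 18800 to 20630 CPM) and total counts (21.8 to 28.4 M and 15.2 to 19.1 M). The parts of nicotine, composition and depth in the differences were not tested. Plat, Plaur, Thbd and Tfpi passed in each of the 12 alternatives run. The log2 fold change of Plaur was 1.30 without Nic 3 and 2.29 without Nic 2. Serpine2 passed in 4 of 12, and was lost when Nic-free 2, 3 or 4 or any single Nic library was left out (adjusted p up to 0.178). Since this comparison shares its Nic-free libraries with the comparison to Room-air, the opposite directions of Plat, Plaur, Thbd and Serpine2 in the 2 comparisons are not independent of each other.

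**Figure D3:**
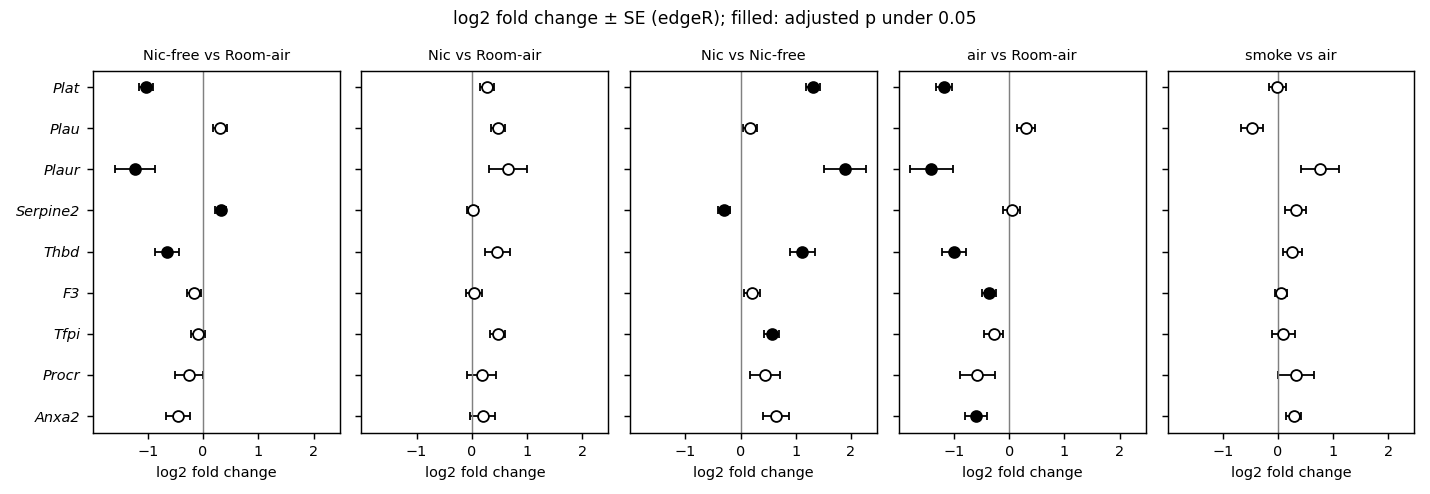
Log2 fold change (x axis) of each gene (y axis) in 5 comparisons, one panel each, as points with the SE as bars, and filled where the adjusted p of edgeR was under 0.05. Plat, Plaur and Thbd lie below 0 in Nic-free against Room-air and in air against Room-air, and above 0 in Nic against Nic-free.

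Both Room-air and air carry the label of room air, and members differed between them. In air, Plat was at 75.9 ± 19.6 CPM (SD, n = 4) against 176 ± 10.6 (log2 −1.18 ± 0.15, edgeR adjusted p 5.9e-05), Plaur at 1.82 ± 1.06 against 4.90 ± 0.718 (−1.41 ± 0.39, 0.0142) and Thbd at 41.9 ± 11.9 against 85.7 ± 14.3 (−0.9996 ± 0.22, 0.00449). Anxa2 (−0.60 ± 0.20, adjusted p 0.041) and F3 (−0.36 ± 0.12, 0.0412) were lower too. So 5 of 9 members were lower and none higher, where 22.7% of 16557 genes passed and 12% were lower, and the same 5 did not overlap between the groups (16.5% of genes were lower without overlap). Procr (−0.57, 0.184), Tfpi (−0.28, 0.234), Plau (0.30, 0.179) and Serpine2 (0.05, 0.843) did not pass. The endothelial marker sum was 1945 ± 513 CPM in air against 3221 ± 550 in Room-air. Relative to it, Plat was at 3.49 to 4.28% in air and 4.91 to 6.47% in Room-air, and Thbd at 1.98 to 2.30% and 2.47 to 2.83%, both without overlap. Plaur at 0.0495 to 0.142% overlapped 0.141 to 0.169%, Anxa2 at 2.11 to 2.35% overlapped 1.91 to 2.32%, and F3 had a higher mean share in air, 3.01% against 2.38%, with overlap. Plat and Thbd passed in each of the 13 alternatives. Anxa2 and F3 were each lost in 6 of the 8 fits that left out one library (adjusted p up to 0.123 and 0.138), and Anxa2 also with no filter (0.08206). Leaving out air 3, the library lowest in Plat, Thbd, Anxa2, Tfpi and Procr, left 2 members, and leaving out air 4, Room-air 1 or Room-air 3 left 3. Over the fits that left out 1 library, 2415 to 3496 of all genes passed.

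Smoke was compared with air, and no member passed (edgeR and DESeq2 both 0 of 9), in a comparison where 1.6% of 15232 genes passed. At an unadjusted p under 0.05 were 19.3% of all genes and 2 members: Plaur at 3.01 ± 0.383 CPM (SD, n = 4) against 1.82 ± 1.06 (log2 0.76 ± 0.35, adjusted p 0.257) and Plau at 5.91 ± 1.49 against 8.32 ± 1.82 (−0.47 ± 0.20, 0.23). Plat had nearly the same level in both groups, 74.2 ± 8.71 and 75.9 ± 19.6 CPM, with a log2 fold change of −0.01 ± 0.15. Thbd (0.26), Anxa2 (0.28), Procr (0.33), Serpine2 (0.32), Tfpi (0.10) and F3 (0.05) had adjusted p from 0.277 to 0.828, and every member's ranges overlapped, where 11.3% of genes did not overlap. The members' median was 0.26, and 0.02 over all genes tested. As a share of the endothelial marker sum, which was 2858 ± 366 CPM in smoke and 1945 ± 513 in air, Plat was at 2.48 to 2.80% against 3.49 to 4.28% in air and Thbd at 1.63 to 1.91% against 1.98 to 2.30%. Tfpi at 0.381 to 0.512% against 0.581 to 0.629% and Anxa2 at 1.62 to 2.02% against 2.11 to 2.35% lay below air without overlap as well, while Plaur had a mean share of 0.107% against 0.0897%, with overlap. These separations hold for the endothelial sum alone. Thbd and Tfpi had r of 0.95 and 0.89 with the pericyte sum, beside 0.92 and 0.86 with the endothelial sum. The pericyte sum was 1122 ± 176 CPM in smoke and 841.5 ± 185 in air, with overlap, and shares of it were not computed. With Room-air as the control, Plat was lower in smoke by a log2 fold change of −1.20 (adjusted p 0.000252), and no other member passed. In that contrast 1027 of 16557 genes passed.

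Whether smoke and nicotine vapour had different effects was tested as the smoke effect minus the Nic effect, each against its own air group. Plau alone passed, with a difference of −0.93 ± 0.24 on the log2 scale (edgeR adjusted p 0.0335), and 5.59% of 16557 genes passed, 2.8% lower. Its own log2 fold changes were −0.47 ± 0.20 in smoke and 0.47 ± 0.13 in Nic, neither of which passed alone. The contrast also holds the difference between the 2 air groups, and Plau stood 0.30 higher on the log2 scale in air than in Room-air (adjusted p 0.179). With the other air group as control, Plau was at −0.18 in smoke (adjusted p 0.5465) and at 0.15 in Nic (0.539). Plau was lost on leaving out Room-air 1, Room-air 2, Nic 1, air 1 or smoke 3 (adjusted p up to 0.105). The other 8 members had differences from −0.35 (Tfpi) to 0.32 (Serpine2), with adjusted p of 0.384 or more.

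**Figure D4:**
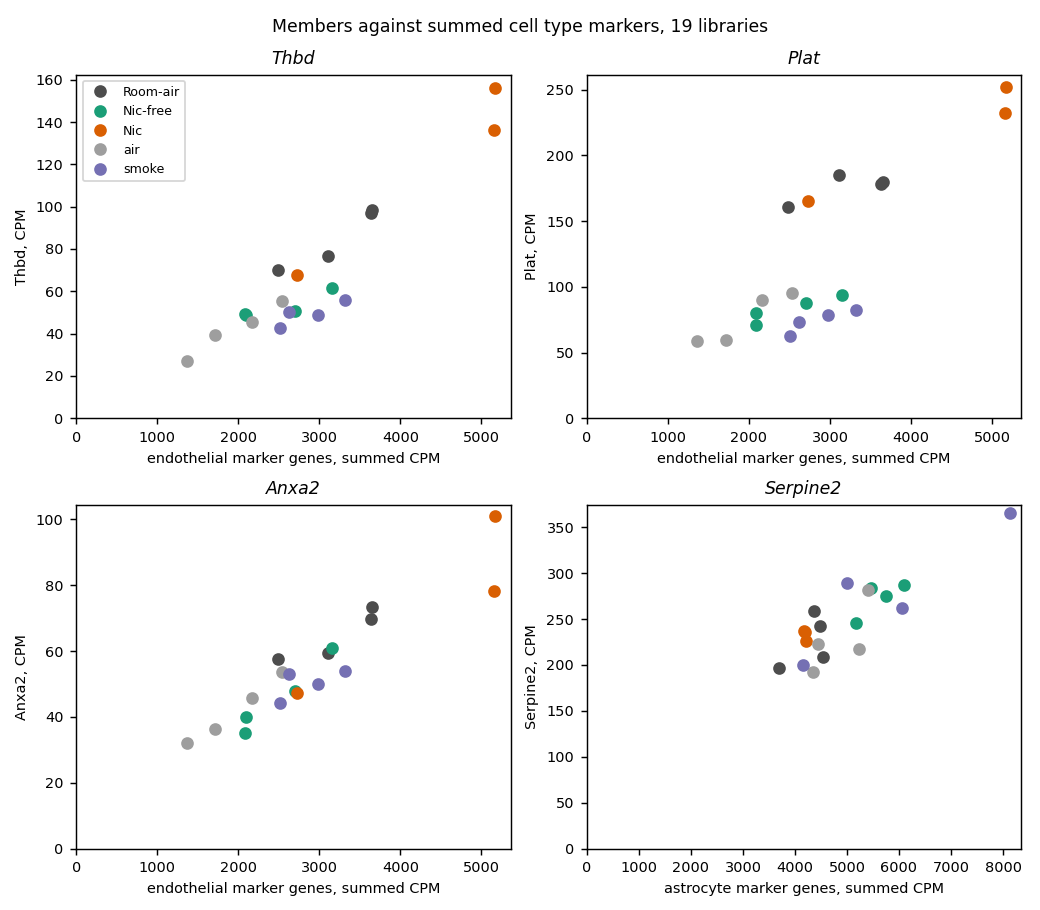
Level of 4 genes in CPM (y axis) against the summed CPM of endothelial or, for Serpine2, astrocyte marker genes (x axis), one point per library, coloured by group. Thbd and Anxa2 have r of 0.92 and 0.93 with the endothelial sum on the log2 scale. Plat in smoke, at 2.48 to 2.80% of the sum, lies under the other groups, and Thbd in smoke, at 1.63 to 1.91%, overlaps Nic-free alone (1.88 to 2.37%).

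Genes most like each member were sought among 14491 protein-coding genes by Pearson r over the same 19 libraries. For Thbd they were Parvb (0.97), Cd93 (0.97), an endothelial surface protein, and Rgs5 (0.96), a pericyte gene. For Plat they were Ceacam1 (0.95), Tead4 (0.94) and Rnf144b (0.94). Plaur was closest to Pxdc1 (0.97), Gimap6 (0.95) and Wfdc1 (0.94), and Anxa2 to Lgals9 (0.98), Tagln2 (0.97) and Wfdc1 (0.97), so that Wfdc1 stood near both. Tfpi was closest to Foxc1 (0.93), a transcription factor of mural cells and fibroblasts, Esyt2 (0.93) and Slc39a8 (0.93), and Procr to Vsig2 (0.94), Fcna (0.93) and Mrvi1 (0.92). Serpine2 was closest to Mmd2 (0.90), Plpp3 (0.88) and Sparcl1 (0.87), and F3 to Acsl3 (0.88), Vit (0.87) and Gja1 (0.86), the connexin of astrocytes and 1 of the 10 astrocyte markers, whose sum had r of −0.05 with F3 (0.52 within groups). Plau had no close neighbour, with Tspan5 (0.78), Hmgxb4 (0.77) and Kcnj2 (0.75) on top.

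Other genes of clotting and fibrinolysis were read from 4 lists of 57 symbols, of which 56 were matched. Of these, 38 were tested in the fit of Room-air, Nic-free and Nic, 33 in that of air and smoke and 35 in that of all 19 libraries. In Nic-free against Room-air 8 fell and 1 rose of 38, beside 21.8% of all genes passing, 10.4% lower and 11.3% higher. Taken in either direction, the share passing was near that of all genes. The falls included A2m, a broad protease inhibitor (log2 −1.08 ± 0.26, edgeR adjusted p 0.0146), Thbs1, thrombospondin-1 (−0.845, 0.0121), Gas6, a vitamin K-dependent ligand (−0.525, 0.00742), and F2rl3, a thrombin receptor (−1.04, 0.0187), and the rise was Serpini1, neuroserpin, an inhibitor of the tissue-type activator in neurons (0.595 ± 0.13, 0.00603). Neuron markers (15 of 15 with counts, none at 0) summed to 7381 to 8313 CPM in Room-air, 9913 to 11410 in Nic-free and 8882 to 11550 in air, and so stood above Room-air without overlap in both groups in which Serpini1 was higher. Choroid plexus and ependyma markers (11 of 11 with counts) summed to 17570 to 24860 CPM in Room-air and 877 to 18450 in Nic-free, with means of 21030 and 7820. A2m stood at 26.4, 11.9, 12.1 and 9.93 CPM in Nic-free 1 to 4, where that sum was 18450, 7531, 4420 and 877 CPM, and at 15, 6.17, 41.3 and 6.35 CPM in smoke 1 to 4, with 12020, 3808, 26700 and 1767 CPM. Gas6 (366 CPM) and F2rl3 (3.52 CPM) were also highest in smoke 3. The part of neuron and choroid plexus markers in these results was not tested. In Nic against Room-air 2 of 38 fell and none rose, beside 3.89% of all genes passing: Gas6 (−0.61, adjusted p 0.0266) and Eno1 (−0.50, 0.0266), an enolase that can bind plasminogen. In Nic against Nic-free 5 rose and 1 fell of 38, beside 24.8% of all genes passing, 12.4% in each direction. Taken in either direction, a smaller share passed than of all genes. Entpd1, which removes ATP and ADP from the vessel surface (0.60, adjusted p 0.0118), Pros1, protein S (0.54, 0.0175), F2r, the main thrombin receptor (0.49, 0.0271), Ggcx (0.32, 0.0329) and Lman1 (0.28, 0.0376) were higher and Eno1 lower (−0.49, 0.00469). In air against Room-air 11 fell and 1 rose of 35, beside 22.7% of all genes passing, 12% lower and 10.7% higher. The falls included Lman1 (log2 −0.50, edgeR adjusted p 0.000997), F2r (−0.67, 0.00595), Entpd1 (−0.67, 0.00683) and Gas6 (−0.65, 0.00802), and Serpini1 was higher (0.46, 0.0116). In smoke against air 0 of 33 passed with edgeR, beside 1.6% of all genes, and 10 had an unadjusted p under 0.05, beside 19.3%. The smoke effect minus the Nic effect passed for Serpini1 (−0.78, adjusted p 0.0248), Gas6 (0.97, 0.0302) and Eno1 (0.63, 0.032). Fga, Fgb, Fgg, F2 and Plg, which encode plasma proteins made in liver, were each at most 0.574 CPM in any library.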

How the data were processed

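Gene counts were deposited per library. Reads were aligned with STAR to mm10 and counted with HTSeq, per the submitters' processing notes. Versions, annotation and strand setting are not given in the sources used here. The 5 summary lines of each file were left out of totals. Reads with no feature were 30.7% ± 2.28 (SD) in Room-air, 42.1% ± 2.58 in Nic-free and 36.4% ± 2.98 in Nic. They were 35.4% ± 1.63 in air and 30.8% ± 1.84 in smoke. The part of this difference in the comparisons, among them those with Nic-free, was not tested. Identifiers were matched to symbols with GENCODE M21 (GRCm38), which also gave exon lengths for RPKM. CPM is the count over the library's total. edgeR 4.0.16 in R 4.3.3 (TMM, filterByExpr, robust quasi-likelihood test, two-sided, Benjamini-Hochberg over all genes tested, threshold 0.05) was fitted to Room-air, Nic-free and Nic, to air and smoke, and to all 19 libraries, and was checked on simulated data. All 9 members passed the filter in each fit. Alternatives were DESeq2 1.42.0, RLE scaling, no filter, a replicate block, each library left out and the other air group as control. Genes named are the members, up to 6 others of the clotting lists per comparison by adjusted p, and the 3 most alike by r. The members and lists were chosen with earlier results of these data known. Correlations used log2 CPM with a prior count of 2.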

Additional observations from a re-analysis of the deposited data

Results flagged for a closer look

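Plaur in Nic-free 1 (1.842 CPM) lay apart from the other libraries of its group, which held 2.038 to 2.055 CPM, on 28 counts. Thbd in Nic-free 3 was the highest of its group at 61.55 CPM, with the other libraries at 48.68 to 50.87 CPM and the highest endothelial marker sum of the group, 3155 CPM, in the same library. Among 36 groups of 4 libraries examined in this way, chance alone flags about 5%. For Plau, the smoke effect minus the Nic effect, each against its own air group, was −0.9332 on the log2 scale (edgeR adjusted p 0.0335). Neither effect passed alone (−0.47, adjusted p 0.23, and 0.47, 0.0539), and the difference was lost in 5 of 15 fits that left out one library. With the other air group as control, the effects were −0.18 (adjusted p 0.5465) in smoke and 0.15 (0.539) in Nic.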

How the results depend on the processing

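The number of members passing was 4 in Nic-free against Room-air, but 3 with RLE scaling (Thbd lost, adjusted p 0.05205), 5 in the fit of these groups alone (Anxa2 gained, 0.04169), 1 with no filter, 0 with air as control and 1 to 4 on leaving out one library; all genes passing went from 3753 to 699 with air as control and 2186 to 3534 on leaving one out. In Nic against Room-air, 0 members became 1 with no filter, 2 with DESeq2, 6 with air as control and 0 to 3 on leaving one out; genes went from 670 to 1578, 4961 and 0 to 2956 with DESeq2, air as control and one left out. In Nic against Nic-free, 4 to 6 members and 2401 to 4679 genes passed on leaving one out. In smoke against air, 1 member passed with Room-air as control; 244 genes became 466 with no filter, 5 with the replicate block, 883 with DESeq2, 1027 with Room-air as control, 519 in the fit of 19 libraries and 1 to 192 on leaving one out. In air against Room-air, 2 to 4 members and 2415 to 3496 genes passed on leaving one out. For smoke minus Nic these were 0 to 1 and 13 to 2476, and 1634 genes with DESeq2. The causes were not tested.

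Signs that turned, as log2 values: with air as control, Nic-free gave Plat 0.1352, Plau −0.01014, Plaur 0.1572, Thbd 0.3353, F3 0.1849, Tfpi 0.1722, Procr 0.3015 and Anxa2 0.1369, and Nic gave Serpine2 −0.05455. With Room-air as control, smoke gave Plaur −0.6584, Thbd −0.7486, F3 −0.3165, Tfpi −0.188, Procr −0.2489 and Anxa2 −0.3238. The replicate block gave Plat 0.01588 in smoke against air, and the fit of Nic and Room-air alone gave Serpine2 −0.01879. Leaving out one library, Nic against Room-air spanned −0.0489 to 0.0802 for Serpine2, −0.155 to 0.172 for F3, −0.142 to 0.46 for Procr and −0.0809 to 0.441 for Anxa2. Smoke against air spanned −0.112 to 0.0943 for Plat, −0.0472 to 0.228 for Tfpi and −0.00696 to 0.12 for F3, and air against Room-air −0.0658 to 0.118 for Serpine2. Smoke minus Nic spanned −0.0894 to 0.209 for F3, −0.29 to 0.729 for Plaur, −0.126 to 0.501 for Procr, −0.159 to 0.39 for Anxa2 and −0.484 to 0.0671 for Thbd. With the replicate block, 3 members passed in Nic-free against Room-air (Serpine2 lost, adjusted p 0.056), and in Nic against Nic-free Serpine2 was lost (0.1287) and Anxa2 gained (0.04278). Same-numbered libraries correlated from −0.309 to 0.278, so the numbers were not taken as pairs.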

Other observations

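F5, coagulation factor V, varied more over the libraries than any member, from 3.42 to 259 CPM, and passed in neither vapour comparison with Room-air (Nic-free log2 −2.32 ± 0.80, edgeR adjusted p 0.0717). It stood at 80.3, 25.6, 13 and 3.42 CPM in Nic-free 1 to 4, where choroid plexus markers summed to 18450, 7531, 4420 and 877 CPM. In smoke 1 to 4 it stood at 53, 15, 259 and 9.36 CPM, with choroid sums of 12020, 3808, 26700 and 1767 CPM. The part of choroid plexus RNA in these values was not tested. F5 was singled out after its values were seen.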
